A study of Bos taurus with 16 samples.

Results

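DPT (ENSBTAG00000021211), POSTN (ENSBTAG00000012409), TGM2 (ENSBTAG00000016208), ADAMTSL2 (ENSBTAG00000007492) and CPXM2 (ENSBTAG00000018941) encode secreted or cross-linking proteins of fibrous extracellular matrix. These 5 of the 19454 genes in the count table were chosen by their measured expression across the same libraries, with TGFβ2 and with the Creb5 shRNA, and for their place in the matrix. Their values are therefore given as a description with no p-value, and where calls of these genes are counted beside those of all genes, the counts restate the choice and support nothing.

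RNA was sequenced from superficial zone articular chondrocytes of 4 calves aged 1 to 2 weeks, with 4 libraries from each calf and 16 libraries in all. The cells carried either a lentivirus with a scrambled shRNA (shScramble) or a lentivirus with an shRNA against Creb5 (shCreb5), and both were selected for 5 days in 0.8 µg/ml puromycin. Each was then kept for 48 hours on low attachment plates, in medium with 10% FBS, in condition A (100 ng/ml TGFα) or in condition AB (100 ng/ml TGFα with 20 ng/ml TGFβ2). Every group thus had virus, puromycin, serum and TGFα, no group was of untreated cells, and each of the 4 groups held 1 library from each of the same 4 calves.

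Fibrous matrix is built when secreted collagens assemble into fibrils on which further proteins bind, space, cross-link or remodel the fibres. TGFβ is a well known inducer of such matrix in connective tissue cells, and part of it is itself held in the matrix by fibrillin microfibrils and latent TGFβ binding proteins. In a joint the superficial zone is the thin layer of flattened cells at the articular surface, which secretes lubricin from the PRG4 gene and lies in collagen fibres that run parallel to that surface.

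Total counts per library ran from 14710867 in shScramble AB of calf 4 to 21853634 in shCreb5 A of calf 2, with a median of 19721435. Levels are given as counts-per-million (CPM) on TMM-scaled library sizes, and log2 fold changes with their standard error (SE) come from a model that holds the calf as a block. Group means are given ± SD over 4 calves.

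The labels were first checked on the shRNA target itself, CREB5 (ENSBTAG00000018909). In condition A its CPM in calves 1 to 4 were 124, 71.4, 77.8 and 105 with shScramble and 86.0, 44.7, 57.7 and 72.6 with shCreb5. In condition AB the corresponding CPM were 83.0, 59.0, 62.7 and 78.7 with shScramble and 43.0, 36.2, 31.1 and 34.9 with shCreb5. Each calf had less CREB5 RNA with shCreb5 in both conditions, by log2 ratios of −0.43 to −0.67 in A and −0.70 to −1.17 in AB, and the groups overlapped in A but not in AB. The log2 fold change was −0.54 (SE 0.08) in A and −0.96 (SE 0.10) in AB, lower in 4 of 4 calves each time. The adjusted p of edgeR's quasi-likelihood test was 0.337 in A (6.99e-05 to 1 over the alternatives) and 0.124 in AB (1.02e-08 to 0.926), so neither passed 0.05 by that test, whereas DESeq2 called CREB5 lower in both conditions. The knockdown left on average 65.2 ± 17.9 CPM in A and 36.3 ± 4.96 CPM in AB.

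PRG4 (ENSBTAG00000011932) marks the superficial zone and was present in every group, at 11334 ± 6093 CPM in shScramble A, 43848 ± 20994 in shScramble AB, 7656 ± 4742 in shCreb5 A and 31724 ± 21838 in shCreb5 AB. Of 4 superficial zone markers 3 could be matched to an identifier (PRG4, CREB5 and CLU), and of 7 chondrocyte markers only HAPLN1, a link protein of the aggrecan network, at 1003 to 8259 CPM. Calf 2 stood apart in HAPLN1, at 6219 to 8259 CPM in its 4 libraries against 1003 to 2857 CPM in the other calves. The superficial zone markers did not move alike with TGFβ2. PRG4 rose, while CLU fell from 6794 to 4476 CPM with shScramble (log2 fold change −0.57) and from 5529 to 3309 CPM with shCreb5 (−0.73), and CREB5 fell with log2 fold changes of −0.40 and −0.82. With shScramble the call of CLU was lost without calf 2, 3 or 4 and that of CREB5 whichever calf was left out. With shCreb5 against shScramble PRG4 had log2 fold changes of −0.63 in A (lower in 4 of 4 calves) and −0.65 in AB (3 of 4), and CLU −0.27 and −0.42 (4 of 4 each), of which edgeR called none and DESeq2 called PRG4 in A. The other chondrocyte markers, COL2A1 among them, were not analysed here.

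DPT encodes dermatopontin, a small protein that binds collagen and decorin and speeds the assembly of collagen fibrils. In condition A its CPM in calves 1 to 4 were 3.85, 0.818, 2.87 and 2.98 with shScramble and 1.29, 0.752, 2.81 and 0.812 with shCreb5. In condition AB they were 577, 90.0, 456 and 282 with shScramble and 180.0, 61.8, 469 and 407 with shCreb5. All 8 AB libraries lay far above all 8 A libraries, while the 2 shRNAs overlapped within each condition, and calf 2 was the lowest of its group in all 4 groups. The group means were, from the highest, shScramble AB (351 ± 212), shCreb5 AB (279 ± 191), shScramble A (2.63 ± 1.29) and shCreb5 A (1.42 ± 0.960). The first and second overlapped, as did the last pair, although within calves DPT in A was lower with shCreb5 in 4 of 4. The A values rested on 16 to 96 counts per library and the AB values on 1144 to 12208.

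POSTN encodes periostin, a matricellular protein that binds integrins and collagen and is abundant in periosteum, tendon and healing tissue. With shScramble its CPM in calves 1 to 4 were 9.91, 6.11, 13.8 and 49.4 in A and 209.5, 12.7, 114 and 218 in AB. With shCreb5 they were 10.2, 2.02, 13.7 and 25.7 in A and 196, 26.3, 299 and 351 in AB. Every calf was higher in AB, yet calves differed so widely that the shScramble groups overlapped, since calf 2 in AB lay below calves 3 and 4 in A. The shCreb5 groups were separated only by the gap between 25.7 and 26.3 CPM. In order, the means were 218 ± 143 in shCreb5 AB, 139 ± 96.3 in shScramble AB, 19.8 ± 20.0 in shScramble A and 12.9 ± 9.83 in shCreb5 A, and every pair of neighbours in this order overlapped. Counts ran from 43 to 5711 per library.

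TGM2 encodes transglutaminase 2, an enzyme that joins glutamine and lysine side chains of proteins such as fibronectin and so cross-links matrix. Its shScramble CPM in calves 1 to 4 were 22.9, 7.94, 17.9 and 11.9 in A and 78.8, 29.0, 64.7 and 43.4 in AB. Its shCreb5 CPM were 20.8, 9.08, 22.4 and 11.0 in A and 18.2, 20.0, 67.4 and 23.8 in AB. The shScramble groups did not overlap, whereas in shCreb5 calf 3 alone had a high AB value and calves 1 and 2 in AB lay within the range of A. The means were 54.0 ± 22.1 in shScramble AB, 32.4 ± 23.5 in shCreb5 AB, 15.8 ± 6.77 in shCreb5 A and 15.2 ± 6.57 in shScramble A, and each overlapped the next in this order. The lowest library held 165 counts and the highest 1667.

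ADAMTSL2 encodes a secreted relative of the ADAMTS proteases that lacks the protease domain and binds fibrillin and latent TGFβ binding proteins of microfibrils. In shScramble cells its CPM in calves 1 to 4 were 2.17, 2.36, 1.77 and 3.11 in A and 82.8, 22.9, 25.6 and 43.7 in AB. In shCreb5 cells they were 1.52, 1.65, 0.270 and 0.451 in A and 40.2, 7.29, 8.18 and 7.07 in AB. Within each shRNA the AB libraries all lay above the A libraries. In A the shCreb5 libraries all lay below those of shScramble, and in AB 3 of the 4 did, with calf 1 at 40.2 CPM as the exception. The means ran from 43.8 ± 27.6 in shScramble AB over 15.7 ± 16.3 in shCreb5 AB and 2.35 ± 0.561 in shScramble A to 0.971 ± 0.711 in shCreb5 A, and of these neighbours only the first and second overlapped. The lowest values were thinly covered, with 5 counts in shCreb5 A of calf 3 (95% exact Poisson interval 1.62 to 11.7) and 10 counts in calf 4 (4.80 to 18.4). These intervals cover counting error only.

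CPXM2 encodes a secreted member of the metallocarboxypeptidase family that has a discoidin domain and is thought to lack enzyme activity. Calves 1 to 4 had 0.923, 1.92, 1.51 and 1.22 CPM in shScramble A and 8.32, 8.23, 15.8 and 10.8 CPM in shScramble AB. With shCreb5 the same calves had 0.552, 1.27, 0.811 and 0.361 CPM in A and 4.12, 1.46, 3.21 and 1.29 CPM in AB. The 4 shScramble AB libraries stood apart from the other 12, of which the highest was 4.12 CPM. The mean of shScramble AB was 10.8 ± 3.54, followed by 2.52 ± 1.38 in shCreb5 AB, 1.39 ± 0.427 in shScramble A and 0.748 ± 0.393 in shCreb5 A, and the last 3 groups each overlapped the next. Counts ran from 8 to 73 in the shCreb5 libraries and from 23 to 285 in the shScramble libraries.

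**Figure D1:**
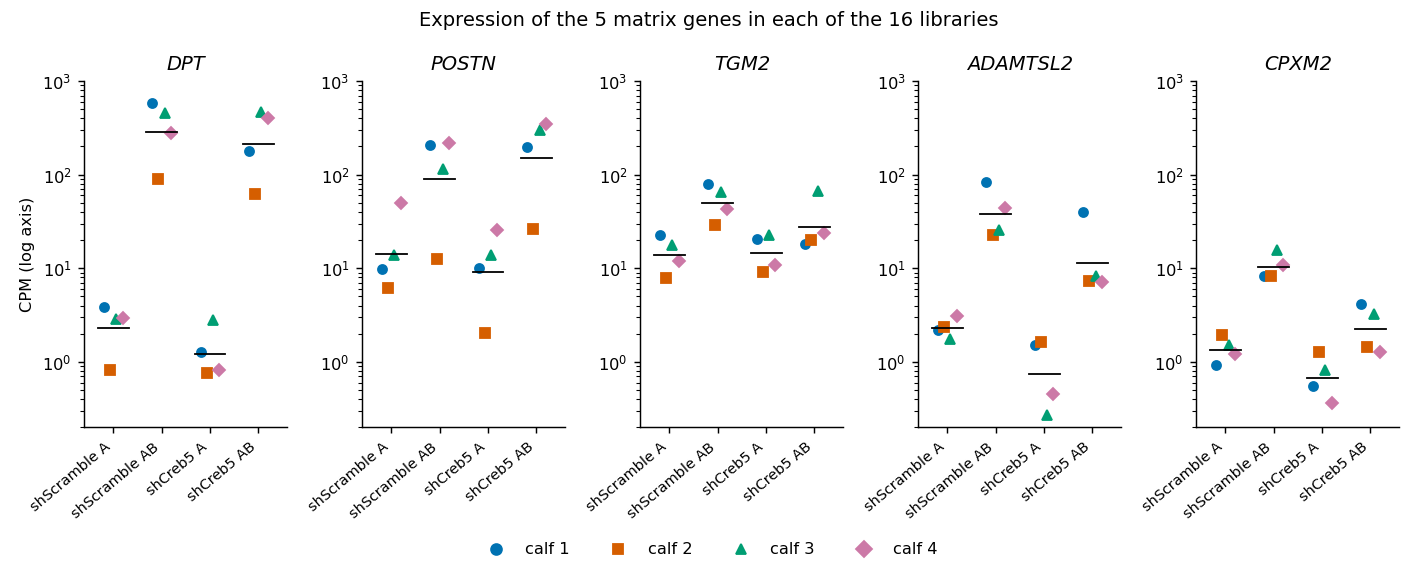
CPM (log axis) of the 5 matrix genes in each of the 16 libraries, with a symbol for each calf and a line at the mean of the 4 calves on the log scale. DPT in AB lies at 61.8 CPM or more against 3.85 or less in A, and CPXM2 in shScramble AB lies at 8.23 CPM or more against 4.12 or less in the other groups.

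With the scrambled shRNA DPT was 128-fold higher in AB than in A, ADAMTSL2 16.9-fold, CPXM2 7.61-fold, POSTN 6.53-fold and TGM2 3.58-fold. The log2 ratios of calves 1 to 4 were 7.19, 6.61, 7.26 and 6.52 for DPT, with a fitted log2 fold change of 7.0 (SE 0.17). For ADAMTSL2 they were 5.19, 3.23, 3.78 and 3.77 (fitted 4.08, SE 0.29), and for CPXM2 3.04, 2.04, 3.30 and 3.04 (fitted 2.93, SE 0.24). Calf 2 gave the smallest ratio of ADAMTSL2 and of CPXM2. POSTN was the most uneven, with ratios of 4.39, 1.04, 3.04 and 2.14 (fitted 2.71, SE 0.46), and TGM2 the most even, with 1.78, 1.85, 1.85 and 1.85 (fitted 1.84, SE 0.09). In a bulk library, fewer cells of a type and less RNA per cell cannot be told apart, and this holds for each of these differences.

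Among 12879 genes tested with shScramble, DPT had the 2nd highest log2 fold change, ADAMTSL2 ranked 11, CPXM2 39, POSTN 55 and TGM2 177. All 5 genes were called higher at an adjusted p under 0.05, where 10.7% of the genes tested were called higher. The groups of 4 of the 5 genes did not overlap, all but POSTN, against 4.99% of genes, and all 5 were higher in 4 of 4 calves, against 21.0%. Nothing is read from these counts, since the same contrast entered the choice of the genes. A model with no calf block called 202 genes in place of 2556, and POSTN and TGM2 were no longer among them.

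With shCreb5 DPT was 185-fold higher in AB than in A, POSTN 16.8-fold, ADAMTSL2 14.0-fold, CPXM2 3.22-fold and TGM2 1.89-fold. DPT had log2 ratios of 7.02, 6.18, 7.33 and 8.80 in calves 1 to 4 (fitted 7.53, SE 0.33), and POSTN had 4.26, 3.63, 4.43 and 3.77 (fitted 4.07, SE 0.15). Those of ADAMTSL2 were 4.64, 2.08, 4.47 and 3.69 (fitted 3.80, SE 0.43). In calf 2 the ADAMTSL2 ratio was the lowest, and without that calf the fitted value was 4.55. CPXM2 gave 2.69, 0.18, 1.86 and 1.59 (fitted 1.69, SE 0.43) and TGM2 −0.19, 1.13, 1.58 and 1.11 (fitted 0.92, SE 0.26). Thus CPXM2 in calf 2 and TGM2 in calf 1 had next to no difference between A and AB.

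Of 12769 genes tested with shCreb5, DPT had the highest log2 fold change, POSTN ranked 7, ADAMTSL2 11, CPXM2 244 and TGM2 704. The 5 genes were all called higher, beside 15.9% of the genes tested, and nothing is read from the counts here either. Without overlap between groups were 4 of the 5, all but TGM2, beside 6.29% of genes, and 4 of the 5 were higher in 4 of 4 calves, beside 25.2%. The CPXM2 groups were separated only by the gap between 1.27 CPM in A (27 counts, calf 2) and 1.29 CPM in AB (21 counts, calf 4). A model with no calf block called 194 genes in place of 3884, and of the 5 genes only DPT was among them. The call of TGM2 was also lost without calf 2, 3 or 4 (fitted log2 fold changes without each calf in turn, 0.67 to 1.28), and that of CPXM2 without calf 1, 3 or 4 (1.25 to 2.27).

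**Figure D2:**
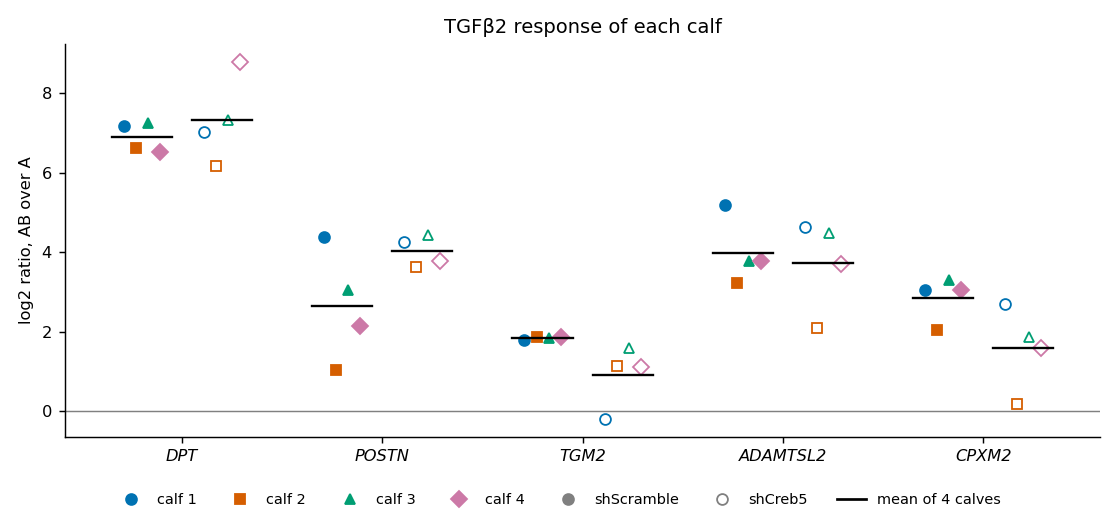
log2 ratio of condition AB over A in each calf for the 5 matrix genes, filled symbols for shScramble and open symbols for shCreb5, with a line at the mean of 4 calves. DPT lies between 6.18 and 8.80, TGM2 with shScramble between 1.78 and 1.85, and TGM2 with shCreb5 in calf 1 at −0.19.

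The shRNA against Creb5 asked which genes differ when CREB5 RNA is lowered. In condition A ADAMTSL2 was lower in 4 of 4 calves, with log2 ratios of −0.49, −0.49, −2.33 and −2.54 (fitted −1.40, SE 0.46), and calves 3 and 4 carried most of the difference. CPXM2 was lower by −0.65, −0.56, −0.82 and −1.51 (fitted −0.95, SE 0.29). DPT had ratios of −1.51, −0.11, −0.03 and −1.75 (fitted −0.93, SE 0.37), lower in calves 1 and 4 and nearly level in calves 2 and 3. POSTN had 0.04, −1.55, −0.01 and −0.94 (fitted −0.57, SE 0.26), and TGM2 −0.14, 0.19, 0.33 and −0.12 (fitted 0.06, SE 0.12). TGM2 took no common direction across calves, and its fitted value was −0.03 without calf 3.

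In condition A edgeR's quasi-likelihood test called 0 of the 5 genes and 0% of 12922 genes, with 1144 genes at an unadjusted p under 0.05, and DESeq2 called 79 genes. DESeq2 called 0 of the 5 lower, beside 0.367% of genes. Lower in 4 of 4 calves were 3 of the 5 (DPT, ADAMTSL2 and CPXM2), beside 8.51% of genes, and ADAMTSL2 alone had groups without overlap, beside 0.449%. From the lowest log2 fold change upward ADAMTSL2 ranked 25 and CPXM2 99.

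In condition AB CPXM2 was lower with shCreb5 in 4 of 4 calves, with log2 ratios of −1.0, −2.42, −2.26 and −2.97 (fitted −2.14, SE 0.31; −2.58 to −1.88 without each calf in turn). ADAMTSL2 was lower by −1.04, −1.64, −1.64 and −2.61 (fitted −1.71, SE 0.24; −1.98 to −1.42). Both were least lowered in calf 1 and most in calf 4. TGM2 had ratios of −2.11, −0.53, 0.06 and −0.87 (fitted −0.85, SE 0.32), of which calf 1 was by far the lowest, and the fitted value was −0.44 without calf 1 and −1.16 without calf 3. POSTN was higher in 3 of 4 calves, at −0.09, 1.04, 1.39 and 0.69 (fitted 0.75, SE 0.23). DPT ran from −1.68 in calf 1 over −0.54 in calf 2 and 0.04 in calf 3 to 0.53 in calf 4 (fitted −0.40, SE 0.33), and without calf 1 its fitted value was 0.01.

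In condition AB edgeR's quasi-likelihood test again called 0 of the 5 genes and 0% of 12664 genes, with 1078 at an unadjusted p under 0.05, and DESeq2 called 55 genes. Among these were 2 of the 5, ADAMTSL2 and CPXM2, both lower, beside 0.311% of genes. By edgeR with low counts unfiltered both were called too, and CPXM2 without calf 1. All these calls restate the choice of the genes, as do the counts in condition A, and support nothing. Lower in 4 of 4 calves were the same 2 genes, beside 9.18% of genes, and CPXM2 alone had groups without overlap, beside 0.766%. CPXM2 ranked 5 and ADAMTSL2 13 from the lowest log2 fold change.

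**Figure D3:**
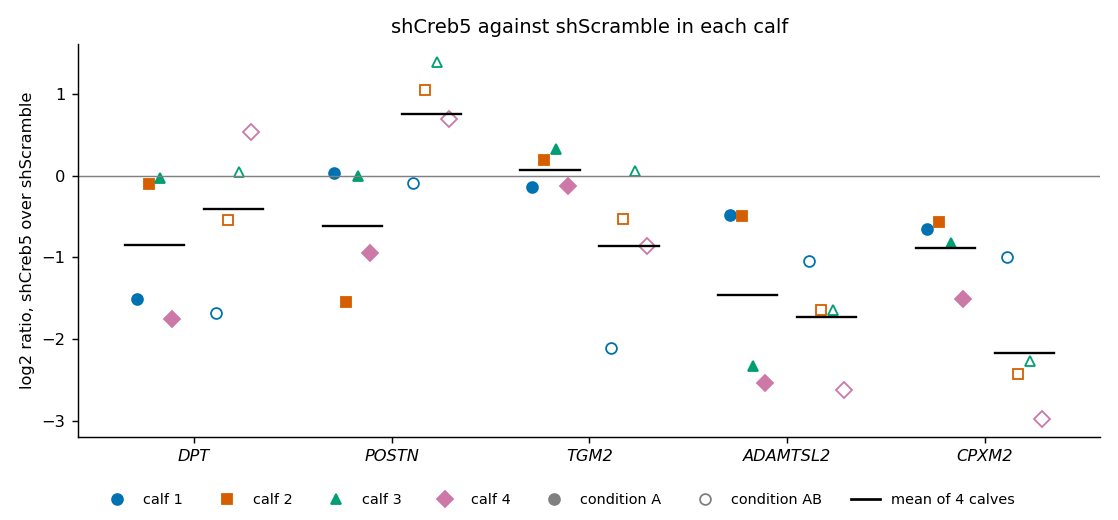
log2 ratio of shCreb5 over shScramble in each calf for the 5 matrix genes, filled symbols for condition A and open symbols for condition AB, with a line at the mean of 4 calves. ADAMTSL2 and CPXM2 lie below 0 in every calf and condition, from −0.49 to −2.97, while POSTN in AB lies above 0 in 3 of 4 calves.

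The difference between the TGFβ2 responses was the shCreb5 response minus the shScramble response in the same calf. CPXM2 responded less with shCreb5 in every calf, by differences of −0.35, −1.85, −1.44 and −1.46 on the log2 scale (fitted −1.20, SE 0.57). TGM2 likewise had −1.97, −0.72, −0.27 and −0.74 (fitted −0.82, SE 0.37). POSTN had −0.13, 2.59, 1.40 and 1.63 (fitted 1.40, SE 0.55), so 3 of 4 calves responded more with shCreb5. ADAMTSL2 had −0.55, −1.15, 0.69 and −0.08 (fitted −0.26, SE 0.68) and DPT −0.17, −0.44, 0.07 and 2.28 (fitted 0.56, SE 0.53), with no common direction. Without calf 2 the ADAMTSL2 value was 0.23, and without calf 4 the DPT value was −0.06. Of 13372 genes edgeR's quasi-likelihood test called 0% for this difference, and 0 of the 5, with 571 genes at an unadjusted p under 0.05 and 9 called by DESeq2.

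The median log2 fold change of the 5 genes was 2.93 for TGFβ2 with shScramble, 3.80 for TGFβ2 with shCreb5, −0.93 for shCreb5 in A and −0.85 for shCreb5 in AB. Over all genes tested the medians were −0.01, −0.01, −0.00 and −0.00. The 4 comparisons share libraries in pairs, so that their values are set side by side and not correlated.

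The sum of squares of log2 CPM over the 16 libraries was divided between TGFβ2, shRNA, calf, the TGFβ2-by-shRNA term and the rest. DPT was the gene most taken up by TGFβ2, at 92.6%, with 4.97% for the calf and 0.728% for the shRNA. In POSTN 56.8% lay with TGFβ2, 36.0% with the calf and 0.0250% with the shRNA. In TGM2 the shares were 49.8% for TGFβ2, 28.3% for the calf, 4.21% for the shRNA and 5.68% for the TGFβ2-by-shRNA term. ADAMTSL2 had 74.1% with TGFβ2, 12.7% with the shRNA and 6.69% with the calf, and CPXM2 had 56.4%, 26.6% and 3.50%. The shRNA thus took a larger share than the calf in ADAMTSL2 and CPXM2, and the calf a larger share than the shRNA in DPT, POSTN and TGM2. For CREB5 itself the shRNA took 44.2% and TGFβ2 28.7%, and for PRG4 the calf took 43.3% and TGFβ2 48.1%.

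**Figure D4:**
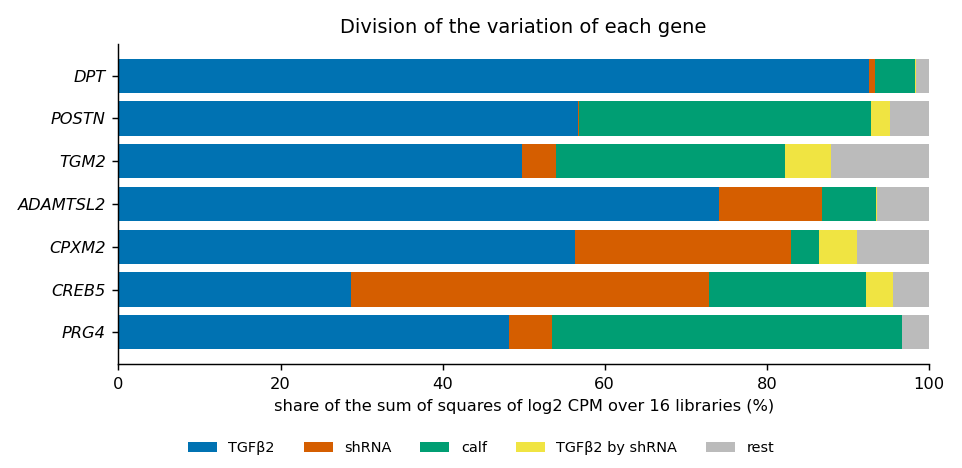
Share (%) of the sum of squares of log2 CPM over 16 libraries that lies with TGFβ2, shRNA, calf, the TGFβ2-by-shRNA term and the rest, for the 5 matrix genes, CREB5 and PRG4. The calf takes 36.0% in POSTN and 28.3% in TGM2, and the shRNA takes 26.6% in CPXM2.

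Calves differed most in POSTN, with mean log2 CPM over their 4 libraries of 5.50, 3.03, 5.66 and 6.64 in calves 1 to 4. For DPT these means were 4.78, 3.02, 5.21 and 4.58, and for TGM2 4.85, 3.85, 5.19 and 4.27. Calf 2 was the lowest in all 3. ADAMTSL2 had calf means of 3.40, 2.38, 1.81 and 2.28, highest in calf 1, and CPXM2 had 1.1, 1.29, 1.57 and 0.80. Calf 2 was thus not the lowest for ADAMTSL2 or CPXM2.

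After the group means were taken out, DPT and TGM2 varied together over the 16 libraries (Pearson r 0.80), as did DPT and POSTN (0.74). POSTN and TGM2 had r 0.45 and ADAMTSL2 and CPXM2 0.37, and the other 6 pairs lay between −0.15 and 0.08. With the group means left in, r ran from 0.50 for POSTN and CPXM2 to 0.88 for ADAMTSL2 and CPXM2. The 16 points share 4 calves and, with the means left in, the treatments, so these values are descriptive.

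Genes with the most similar profiles of log2 CPM over the 16 libraries were sought among 3121 genes that have a symbol. Among those nearest to DPT were TTC9 (r 0.95, Spearman's rho 0.81) and ST6GAL1 (0.94, 0.81). The fibril collagen gene COL5A2 was nearest to POSTN (0.97, 0.89), followed by GLDN (0.95, 0.89) and GALNT15 (0.92, 0.85). TGM2 was most like PRG4 (0.89, 0.85), then TRIM54 (0.87, 0.81) and KLF11 (0.86, 0.81). ADAMTSL2 was closest to CCL2 (0.95, 0.91), NKD1 (0.94, 0.92) and MFSD4A (0.94, 0.93), and CPXM2 to GRK5 (0.94, 0.96), TRH (0.94, 0.94) and KCNQ3 (0.91, 0.90). Ranked by rho in place of r, the 3 nearest genes shared 0 names for DPT, 1 for POSTN, 1 for TGM2, 0 for ADAMTSL2 and 2 for CPXM2. All points share treatments and calves, and the genes with a symbol are a partial set.

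Other matrix genes were counted by lists, in which 67 of 165 listed genes could be matched to an identifier. Symbols were at hand for 3157 genes, and these favour genes that differed in the study: 28.9% of those tested were called in either direction for TGFβ2 with shScramble against 19.8% of all genes, and 45.5% against 30.4% with shCreb5. Rose, fell and not called refer to edgeR's quasi-likelihood test at an adjusted p under 0.05, and other fits add or lose some of these calls. In small counts the genes outside the 3 most abundant of a list are named after their values were seen.

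Of 13 paralogues of the 5 genes 3 had an identifier. TGFBI, the close relative of POSTN, rose with TGFβ2 from 10.7 to 178 CPM with shScramble and from 6.68 to 157 CPM with shCreb5. By edgeR's quasi-likelihood test its log2 fold changes were 3.93 (SE 0.34, adjusted p 0.000367, 5.3e-16 to 0.0113 over the alternatives) and 3.77 (SE 0.57, adjusted p 0.00321, 5.41e-06 to 0.0428), higher in 4 of 4 calves each. ADAMTSL4 and THSD4, relatives of ADAMTSL2, were not called, with log2 fold changes of −0.08 and −0.30 with shScramble and −0.32 and 0.09 with shCreb5. The median of the 3 was −0.08 with shScramble and 0.09 with shCreb5.

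Fibrillar and fibril-associated collagens had 8 of 12 genes with an identifier, and 4 of the 8 (COL3A1, COL5A1, COL5A2 and COL12A1) rose with TGFβ2 with either shRNA while none fell. COL3A1, type III collagen, went from 4084 to 9136 CPM with shScramble (log2 fold change 1.18, SE 0.18) and from 3373 to 7746 CPM with shCreb5 (1.17, SE 0.12). Its adjusted p by edgeR's quasi-likelihood test was 0.00356 (3.94e-14 to 0.0687 over the alternatives) and 0.000823 (1.48e-23 to 0.079), higher in 4 of 4 calves each. The type VI collagen genes COL6A1 and COL6A2 were not called, at 0.30 and 0.37 with shScramble and 0.26 and 0.29 with shCreb5. The median over the list was 0.74 with shScramble and 0.54 with shCreb5. Without the calf in the model 1 of the 8 was called with either shRNA. COL12A1 was also not called without calf 2 or 4 with shScramble. With shCreb5 COL12A1 was not called without calf 1, 2 or 4, nor in the fit of all 16 libraries.

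Genes of collagen and matrix cross-linking and assembly, the functional neighbours of TGM2 and DPT, numbered 9 of 18 with an identifier. With shScramble 5 rose (LOX, PLOD1, PLOD2, SERPINH1 and FKBP10), 1 fell and 3 were not called, and with shCreb5 8 rose and 1 fell. SERPINH1, the collagen chaperone, had a log2 fold change of 0.51 with shScramble and 0.83 with shCreb5, and P4HA1, a proline hydroxylase, 0.33 (not called) and 0.79. TNC, tenascin C, was the gene that fell with both, from 10501 to 6585 CPM with shScramble (−0.73, SE 0.19) and from 14279 to 8138 CPM with shCreb5 (−0.79, SE 0.16). The list medians were 0.65 and 0.83, and without the calf in the model at most 1 of the 9 was called with either shRNA. With shScramble the call of PLOD1 was also lost without calf 1, 2 or 3, of PLOD2 without calf 4, of SERPINH1 without calf 1, 3 or 4, of FKBP10 without calf 3 and of TNC without calf 2, 3 or 4, so that LOX alone of the 6 kept its call whichever calf was left out. Of the 3 not called, P4HA3 (log2 fold change 0.83) was called higher by DESeq2, by limma-voom and with low counts unfiltered, and LOXL3 (0.65) with low counts unfiltered and without calf 4.

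Of the microfibril and latent TGFβ binding genes, the neighbours of ADAMTSL2, 10 of 19 had an identifier. With either shRNA 5 rose (LTBP2, FBLN2, FBLN5, ADAMTS10 and ADAMTS6), LTBP1 fell and 4 were not called. LTBP2 went from 113 to 301 CPM with shScramble (log2 fold change 1.51, SE 0.20) and from 128 to 281 CPM with shCreb5 (1.17, SE 0.21). LTBP1 had −0.50 and −0.41, calls lost in the fit of all 16 libraries, without calf 2, 3 or 4 with shScramble and without calf 3 with shCreb5. LTBP3 had 0.20 and −0.28 and was not called, although without calf 1 it was called with shScramble. FBN2, at −0.27 with shScramble and lower in 3 of 4 calves, was likewise called there only without calf 1. The list medians were 0.64 and 0.52, and the calls in this list were lost without the calf in the model.

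Cartilage matrix genes with an identifier were 8 of 21. With shScramble 4 rose (PRG4, MATN2, CHAD and CILP2), MATN4 fell and 3 were not called, and with shCreb5 6 rose, MATN4 fell and HAPLN1 was not called. PRG4 had log2 fold changes of 1.94 (SE 0.22) and 1.91 (SE 0.22), COL11A1 0.47 (not called) and 1.11, and HAPLN1 −0.09 and 0.45. Medians were 1.2 and 1.58, and without the calf in the model 2 and 1 genes rose. DESeq2 did not call PRG4 with shScramble. HAPLN1 with shCreb5 was called higher by DESeq2, by limma-voom, with low counts unfiltered and without calf 2, MATN1 with shScramble was called without calf 4, and MATN1 with shCreb5 was not called in the fit of all 16 libraries.

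TGFβ target and feedback genes had 13 of 22 with an identifier, and 7 rose, 1 fell and 5 were not called with either shRNA. LTBP2 is among those that rose, TGFBR3, a co-receptor for TGFβ2, was the gene that fell (−0.46 and −0.89), and CCN2 was not called (0.09 and 0.40). The list median was 0.40 with both, and without the calf in the model 1 and 2 genes rose. With shScramble the calls of SKI and TGFB1 were lost without calf 2, 3 or 4 and that of TGFBR3 without calf 1, 2 or 4, and with shCreb5 that of SKI whichever calf was left out and that of TGFBR1 without calf 1, 3 or 4. Integrins and matrix receptors had 6 of 14 with an identifier, of which 3 rose (ITGA2, ITGA5 and CD44) and DDR2 fell with shScramble, while ITGA2 and ITGA5 rose and ITGB3 and DDR2 fell with shCreb5. ITGA5, a chain of the fibronectin receptor, had 1.33 (SE 0.12) and 1.1 (SE 0.14), CD44 0.66 and 0.35 (not called), and DDR2, a collagen receptor, −0.53 and −0.86. Medians were 0.21 and 0.12, and without the calf in the model at most 1 of the 6 was called. DDR2 with shScramble was also not called without calf 2 or 4. DESeq2, limma-voom and edgeR with low counts unfiltered called ITGB3 lower with shScramble and CD44 higher with shCreb5. None of 12 small leucine-rich proteoglycan genes, decorin among them, was analysed here.

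For the shCreb5 comparisons edgeR's quasi-likelihood test called 0 genes of these lists, with 1144 and 1078 genes of all at an unadjusted p under 0.05 and 79 and 55 called by DESeq2. Among the list genes that DESeq2 called were PRG4, CCN2 and TGFBR1, lower, and CD44, higher, in A, and TGFBR1 and CILP2 lower and MATN1 higher in AB. The list medians ran from −0.47 for the paralogues to 0.24 for the receptors in A, and from −0.55 for the paralogues to 0.19 for the cross-linking genes in AB.

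**Figure D5:**
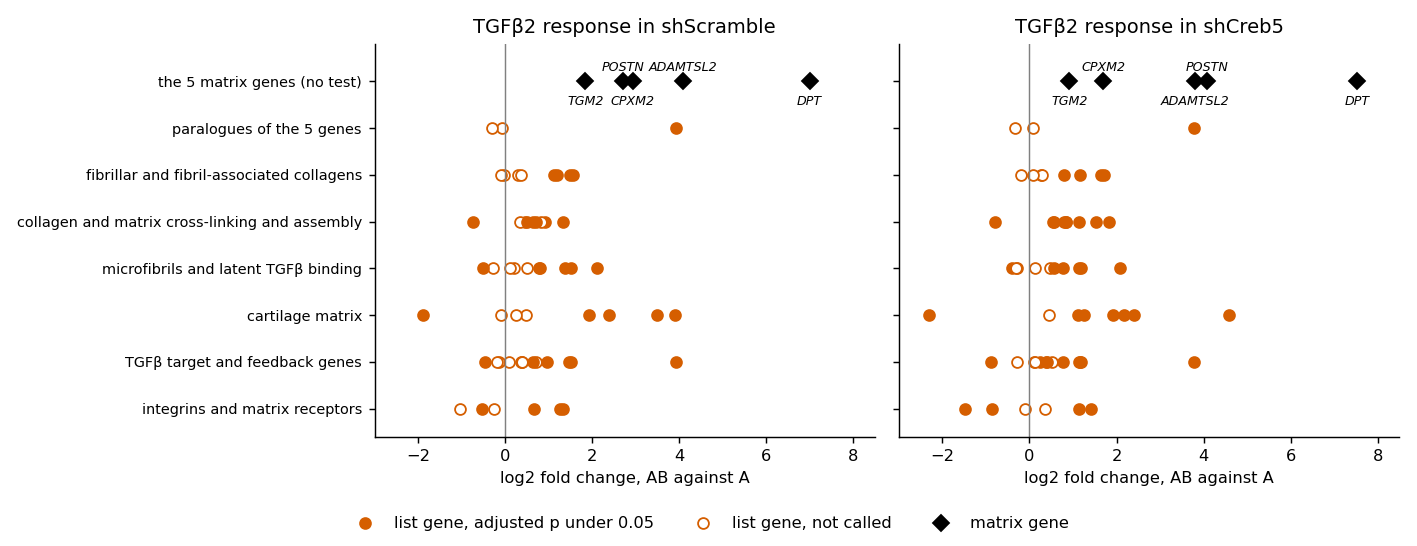
log2 fold change of TGFβ2 (AB against A) for the genes of each matrix list, filled where the adjusted p is under 0.05, with the 5 matrix genes as diamonds without a test. DPT lies at 7.0 with shScramble and 7.53 with shCreb5, and TGFBI, the paralogue of POSTN, at 3.93 and 3.77.

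Of 7 markers of synovial or tendon fibroblasts 2 had an identifier, THY1, the most abundant, and MKX, and neither was at 0 in a group. They did not move together, since only THY1 rose with TGFβ2. Their summed CPM in calves 1 to 4 were 115, 42.1, 54.9 and 86.4 in shScramble A and 239, 75.9, 151 and 167 in shScramble AB. They were 147, 45.9, 133 and 267 in shCreb5 A and 280, 69.6, 332 and 551 in shCreb5 AB. The highest sum was thus in shCreb5 AB of calf 4, which also had the highest POSTN value, and calf 2 was the lowest in each group. THY1 rose with TGFβ2 by 1.43 (SE 0.12) with shScramble and 1.08 (SE 0.12) with shCreb5 on the log2 scale, in 4 of 4 calves. Its adjusted p by edgeR's quasi-likelihood test was 0.00033 (1.36e-22 to 0.168 over the alternatives) and 0.00118 (4.02e-13 to 0.449). With shCreb5 THY1 was higher in 4 of 4 calves in A (log2 fold change 1.08) and in 3 of 4 in AB (0.72). By edgeR's quasi-likelihood test the adjusted p was 0.509 in A (0.00711, by DESeq2, to 1 over the alternatives) and 0.599 in AB (0.293 to 1), so that DESeq2 called THY1 higher in A and edgeR did not. MKX had −0.14 and 0.50 and was called by neither tool. MKX fell with TGFβ2 with shScramble (log2 fold change −0.58), a call lost without calf 1, 3 or 4, and was not called with shCreb5 (0.06). The part of these markers in the values of the 5 genes was not tested.

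Markers of other cell types were present too. VWF, the marker with an identifier among 3 of endothelium, lay at 2.52 to 19.5 CPM, and FABP4, that among 3 of adipocytes, at 0.871 to 51.0 CPM. CD14 and CD68, which are 2 of 4 leukocyte markers, summed to 12.2 to 92.7 CPM. CD14 had the higher mean CPM in 3 of the 4 groups, and CD68 in shCreb5 A, where it reached 71.6 CPM in a single library. VWF, CD68 and FABP4 fell with TGFβ2, by log2 fold changes of −0.89, −0.90 and −2.10 with shScramble and −1.60, −1.80 and −2.69 with shCreb5, while CD14 was not called and the call of CD68 with shScramble was lost without calf 3 or 4. With shCreb5 in condition A the same 3 markers had log2 fold changes of 0.72, 0.86 and 1.17, higher in 4, 4 and 3 of 4 calves, and were not called. None of these markers was at 0 in a group, and the 3 osteoblast and 3 smooth muscle markers were not analysed here. Whether cells of these types were present, and what part they had in the results, was not tested.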

How the data were processed

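Per the labels and the study's methods, the authors made libraries with the KAPA mRNA HyperPrep kit, sequenced single ends on a NextSeq instrument and quantified genes with Salmon and tximport under bcbio-nextgen, with the UMD3.1 build. The deposited values are estimated counts per gene, 19454 genes in 16 libraries, and were rounded to whole numbers. The authors measured RNA integrity in all 16 samples, but the sources used here do not tie its values to single libraries.

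Each comparison of 2 groups was fitted to its own 8 libraries, and the difference of responses to all 16, with edgeR 4.0.16 in R 4.3.3 (filterByExpr, TMM, quasi-likelihood test, calf as block). P-values were adjusted by Benjamini-Hochberg over all genes tested and called under 0.05. CPM used TMM factors over 16 libraries, and log2 CPM a prior count of 2. The steps were tested on simulated data in which a planted change was the same in every calf, so that test does not cover ratios that vary between calves. The calf comes from the number in the labels, by which libraries of the same animal share it. Deviations from group means correlated at 0.132 to 0.837 (median 0.670) over 24 pairs of the same calf and at a median of −0.234 (highest 0.204) over 72 pairs of different calves. Taking out the group means by itself pulls the values of different calves below 0, so nothing is read from their sign. With the calf as a block, p-values measure how the difference within a calf varies over the 4 calves, and not the spread of levels between calves.

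Alternatives were DESeq2 1.42.0, limma-voom (limma 3.58.1), RLE factors, low counts left unfiltered, a minimum of 1 CPM in 4 libraries, no calf block, a single fit of all 16 libraries, each calf left out, library totals alone and Spearman's rho. Symbols came from the study's own gene lists and from RefSeq (names only), covering 3157 genes. Named are the 5 genes, CREB5, PRG4, the paralogues, the 3 genes of highest mean log2 CPM tested in each of 16 lists, and the 3 genes with the highest Pearson r to each of the 5, of which 1 is not reported here. The 5 genes and the lists were chosen with earlier results of these data known.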

Additional observations from a re-analysis of the deposited data

Results flagged for a closer look

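Of 60 sets of 4 calves, 2 held a calf far from the other 3, and chance marks about 1 in 20 groups, or 3 of 60. The TGM2 log2 ratio for TGFβ2 with shScramble was 1.78 in calf 1 and 1.85 in the others, and the gap took 0.935 of the range, though it was only 0.07 wide. The ADAMTSL2 log2 CPM in shCreb5 AB was 5.33 in calf 1 and 2.84 to 3.05 in the others, a gap of 0.917 of the range. No cause was tested for either.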

How the results depend on the processing

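The number of genes called moved most when the calf was left out (no replicate block), from 2556 to 202 for TGFβ2 with shScramble and from 3884 to 194 with shCreb5, while the shCreb5 comparisons and the difference of responses had 0 with and without it. Without each calf in turn the counts were 1366 to 1926, 1962 to 3829, 0 to 1 for shCreb5 in A, 0 to 2 for shCreb5 in AB and 0 to 0 for the difference, with fewer libraries in each fit. By edgeR's quasi-likelihood test shCreb5 called 0 genes in A (1144 at an unadjusted p under 0.05) and DESeq2 called 79. In AB edgeR called 0 (1078 unadjusted), DESeq2 55, edgeR with no filter on low counts 17, limma-voom 1 and a single fit of all 16 libraries 6. For the difference edgeR called 0 (571 unadjusted) and DESeq2 9. The cause was not tested. Of 110 log2 fold changes of the 5 genes for TGFβ2 under the alternatives 0 had another sign, of 110 for shCreb5 2 did (DPT in AB without calf 1, TGM2 in A without calf 3), and of 50 for the difference 2 did (DPT without calf 4, ADAMTSL2 without calf 2). All 40 mean CPM moved by less than 1 SD under other scalings. Among 1144 list counts 85 moved by over 1.5 times. Depth limits DPT, ADAMTSL2 and CPXM2 in condition A, and CPXM2 in shCreb5 AB (21 to 73 counts).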
